A study of Caenorhabditis elegans with 8 samples.

Results

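RNA polymerase II calls were examined at 36 Caenorhabditis elegans genes that encode the contractile apparatus of muscle and its attachment to the cell surface. They were listed by sequence name for their known roles, with some calls of these data already known, in thick filaments, thin filaments, integrin attachments and dense bodies, together with the dystrophin gene and the muscle transcription factor gene unc-120. Of the 36, 23 appear among the 8922 genes that the deposited table lists as called in at least 1 condition, and the other 13 are called in neither. The 23 make up 63.9% of the set, against 18.8% of all genes and 29.9% of protein-coding genes called in at least 1 condition. The set is named for body-wall muscle, but myo-1 and myo-2 encode the myosins of the pharynx, and several attachment genes also act in other tissues.

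The calls come from chromatin immunoprecipitation and sequencing of early embryos of strain KW2309 with an antibody to AMA-1, the polymerase subunit that carries the catalytic site and the C-terminal tail. A first set of embryos had sig-7 RNAi, and the control set L4440, the empty RNAi feeding vector. Each condition had 2 AMA-1 ChIP libraries and 2 input libraries. Embryos ran from 1 to 350 cells and were taken from adults grown for 72 h. The labels give neither the genotype behind the strain name, nor the spread of stages within each condition, nor whether replicates were separate cultures. A call of 1 requires a peak over the gene in both replicates of a condition, so the calls carry no error between libraries and give no amount of polymerase. The targeted gene sig-7 (F39H2.2), the gene of an RNA-binding cyclophilin of the nucleus, was called in sig-7(RNAi) and not in control. A polymerase call does not measure its transcript. ama-1 (F36A4.7) was called in both conditions.

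In nematode body-wall muscle, myosin thick filaments slide past actin thin filaments, and calcium releases the block that troponin and tropomyosin place on the thin filament. Dense bodies and M-lines anchor the filaments to integrins in the muscle membrane, which hold the cell to the basement membrane and through it to the epidermis. The myogenic factors HLH-1 and UNC-120 switch these genes on as muscle cells are born and differentiate in the embryo.

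Fewer muscle genes had a polymerase call after sig-7 RNAi than in control. In sig-7(RNAi) embryos 12 of the 36 genes were called (33.3%), and in control embryos 21 (58.3%). Over all 46926 genes of the gene table, 13.9% were called in sig-7(RNAi) and 14.4% in control, and over the 19983 protein-coding genes 23.9% and 22.8%. The muscle genes were thus called more often than protein-coding genes at large in both conditions, with a wider gap in control. The background was not matched to the muscle genes for gene length. The members' calls overlapped in 10 genes, which is 83.3% of those called in sig-7(RNAi) and 47.6% of those called in control. Among protein-coding genes the shared calls were 70.5% of the sig-7(RNAi) set and 73.6% of the control set.

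Calls in a single condition lay mostly on the control side. Of the 36 genes, 2 were called in sig-7(RNAi) only (5.56%, against 4.4% of all genes and 7.05% of protein-coding genes). That share is close to the background and says nothing particular about muscle genes. In control only, 11 were called (30.6%, against 4.88% of all genes and 6.03% of protein-coding genes). The calls of 4 of these 11 (unc-54, myo-3, lev-11 and unc-120) were known when the set was chosen, and without them 7 of 32 genes (21.9%) were control only. The 10 called in both made up 27.8% of the set, against 9.52% of all genes and 16.8% of protein-coding genes. These are counts in a single pair of combined calls, with no test over samples. In whole embryos, fewer muscle cells, less polymerase per muscle cell and a different spread of stages cannot be told apart. None of these was tested.

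**Figure D1:**
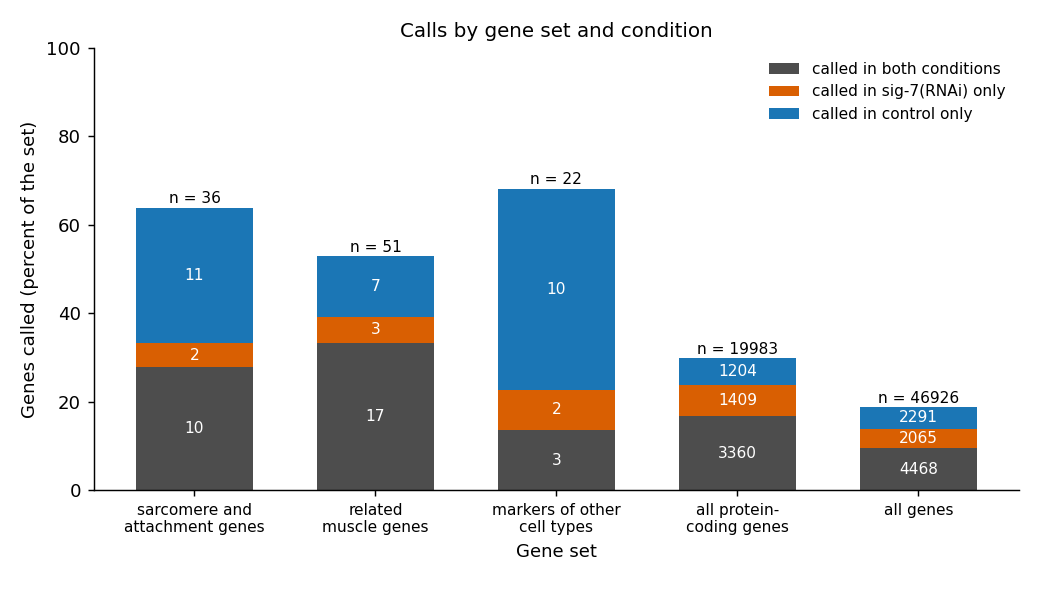
Percent of each gene set (y axis) called in both conditions, in sig-7(RNAi) only and in control only, with the number of genes written in each segment and the size of the set above each bar. The sarcomere and attachment genes have 11 control-only against 2 sig-7(RNAi)-only genes, while all protein-coding genes have 1204 control-only and 1409 sig-7(RNAi)-only genes.

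The thick filament genes were split over every kind of call. unc-54 (F11C3.3), which encodes the main body-wall myosin heavy chain, and myo-3 (K12F2.1), which encodes the heavy chain at the centre of the filament, were not called in sig-7(RNAi) and were called in control. The pharyngeal myosin genes myo-2 (T18D3.4) and myo-1 (R06C7.10) were called in neither condition. The heavy chain genes thus separated by muscle type in control and had no call at all in sig-7(RNAi). Among the light chains, mlc-3 (F09F7.2), which encodes the essential light chain, was called in both conditions. So was mlc-2 (C36E6.5), which encodes a regulatory light chain. Its neighbour mlc-1 (C36E6.3), which encodes a nearly identical regulatory light chain, was called in neither. How reads that match both copies were placed is not given in the sources used here, so the separate calls of mlc-1 and mlc-2 are uncertain.

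The other genes of the thick filament had few calls. unc-15 (F07A5.7), which encodes paramyosin, the core protein of the filament, was called in neither condition. unc-45 (F30H5.1), which encodes the chaperone that folds myosin heads, was called in sig-7(RNAi) and not in control. The giant proteins twitchin (unc-22, ZK617.1), a regulator of relaxation, and UNC-89 (C09D1.1), the obscurin homologue of the M-line, had a call in neither condition. An overlap of 250 bp anywhere in a gene is enough for a call, so at these very long genes at most 1 replicate of each condition had such an overlap. The group of 9 thick filament genes had 3 calls in sig-7(RNAi) (33.3%, against 23.9% of protein-coding genes) and 4 in control (44.4%, against 22.8%). Of the 9, mlc-2 and mlc-3 were called in both (22.2%, against 16.8%).

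None of the 6 thin filament regulators was called in sig-7(RNAi), against 23.9% of protein-coding genes. In control 3 were called, against 22.8% of protein-coding genes. With 6 genes this is a description only. The 3 were lev-11 (Y105E8B.1), the tropomyosin gene, tni-1 (F42E11.4), a troponin I gene, and pat-10 (F54C1.7), the gene of body-wall troponin C. They supply the strand along actin, the inhibitory subunit and the calcium sensor of the switch. The third subunit, troponin T, which ties the complex to tropomyosin, had no call, since mup-2 (T22E5.5) and tnt-3 (C14F5.3) were called in neither condition. A further troponin I gene, unc-27 (ZK721.2), was also called in neither.

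Actin filament regulators divided by gene. unc-60 (C38C3.5) was called in both conditions. It encodes ADF/cofilin proteins that sever actin filaments, in a general and a muscle isoform, and a call per gene cannot tell these apart. cpn-3 (F28H1.2), which encodes a protein of the calponin family, was called in control and not in sig-7(RNAi). unc-87 (F08B6.4), which encodes a protein with calponin-like repeats that bundles actin, and unc-78 (C04F6.4), which encodes the cofilin partner AIP1, were called in neither. The 4 genes therefore had 1 call in sig-7(RNAi), a share near the 23.9% of protein-coding genes, and 2 in control, where 22.8% of protein-coding genes were called.

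Most integrin attachment and dense body genes were called in control. In sig-7(RNAi) 6 of the 12 genes were called (50.0%, against 23.9% of protein-coding genes), and in control 10 (83.3%, against 22.8%). Among protein-coding genes 70.5% of the sig-7(RNAi) calls were shared with control, and here all 6 were. They were pat-3 (ZK1058.2), the beta integrin gene, unc-112 (C47E8.7), the kindlin gene, pat-4 (C29F9.7), the integrin-linked kinase gene, unc-97 (F14D12.2), the PINCH gene, and the LIM domain genes alp-1 (T11B7.4) and zyx-1 (F42G4.3). ALP-1 belongs to the ALP/Enigma family and ZYX-1 is the nematode zyxin.

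The 4 control-only attachment genes (33.3% of the 12, against 6.03% of protein-coding genes) included binding partners of proteins whose genes were called in both. pat-2 (F54F2.1) encodes the alpha integrin that pairs with PAT-3, and pat-6 (T21D12.4) encodes the parvin that binds the integrin-linked kinase. Each was called in control and not in sig-7(RNAi). The same held for deb-1 (ZC477.9), the vinculin gene of the dense body, and for dim-1 (C18A11.7), which encodes an immunoglobulin domain protein that stabilises the myofilament lattice. Thus in control the integrin pair and 4 of the proteins at its inner face (kindlin, the kinase, PINCH and parvin) each had a called gene. In sig-7(RNAi) the alpha integrin and parvin genes lacked a call. atn-1 (W04D2.1), the alpha-actinin gene, and unc-95 (Y105E8A.6), which encodes a LIM protein of dense bodies and M-lines, were called in neither condition.

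**Figure D2:**
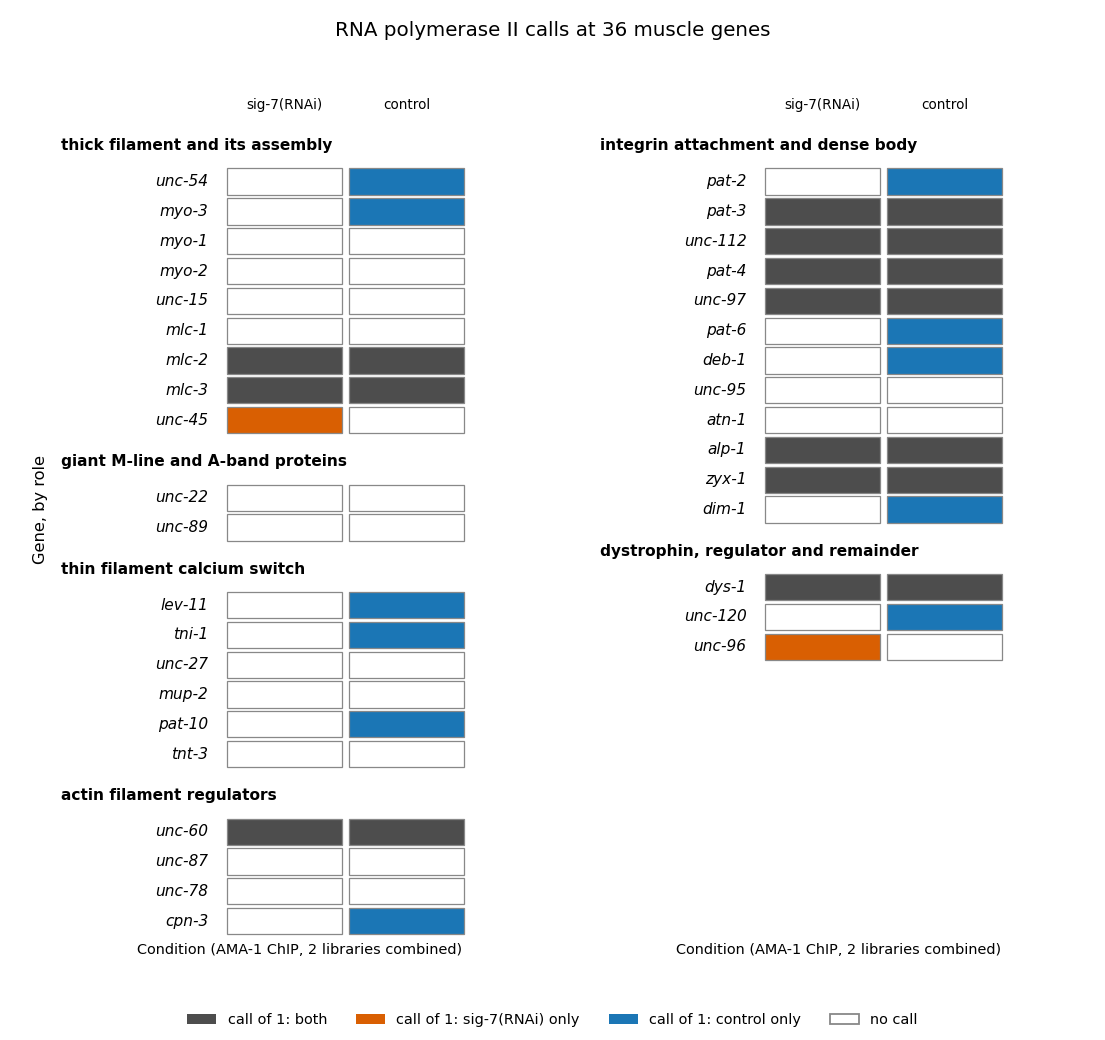
Calls at the 36 genes, in rows by role, with sig-7(RNAi) as the left column and control as the right one. A filled box is a call of 1, coloured by whether the gene was called in both conditions, in sig-7(RNAi) only or in control only. The thin filament calcium switch is empty in the sig-7(RNAi) column, and the attachment group has 6 of its 12 genes filled in both columns.

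The remaining 3 genes each had a different pair of calls. dys-1 (F15D3.1), the dystrophin gene, was called in both conditions. unc-96 (F13C5.6), which encodes a protein of the M-line, was called in sig-7(RNAi) and not in control. unc-120 (D1081.2), which encodes the SRF-like factor that acts with HLH-1 in muscle fate, was called in control and not in sig-7(RNAi).

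Other muscle genes outside the set were called in more equal numbers. Of 51 related genes, 20 were called in sig-7(RNAi) (39.2%, against 23.9% of protein-coding genes) and 24 in control (47.1%, against 22.8%). They comprised 17 called in both conditions (33.3%, against 16.8% of protein-coding genes), 3 in sig-7(RNAi) only and 7 in control only. The sig-7(RNAi)-only share, 5.88%, was near the 7.05% of protein-coding genes. The control-only share was 13.7%, against 30.6% of the sarcomere and attachment genes and 6.03% of protein-coding genes. Without the 4 members whose calls were known, the share of the sarcomere and attachment genes was 21.9%. No test was made of these differences, and the related genes too were chosen with earlier results of these data known. Those called in both included the actin genes act-1, act-2, act-3 and act-4, the troponin I gene tni-4, the talin gene tln-1, the spectrin gene unc-70 and epi-1, which encodes a laminin subunit. The actin genes are close to identical in sequence, so their separate calls are uncertain. act-5, which encodes an actin of intestinal microvilli, was called in neither.

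The related genes called in control only were rsu-1, a partner of PINCH, scpl-1, which encodes a phosphatase of the M-line, unc-94, the tropomodulin gene, unc-115, the abLIM homologue, unc-52, which encodes the perlecan to which muscle integrin binds, the laminin gene lam-3, and sgn-1, a sarcoglycan gene. Within the M-line and dense body genes of this list, 1 of 12 was called in sig-7(RNAi) (8.33%, against 23.9% of protein-coding genes). In control 5 were called (41.7%, against 22.8%). The M-line gene unc-96, called in sig-7(RNAi) only, was first on this list but is counted with the members and not here. The related genes called in sig-7(RNAi) only were him-4, the hemicentin gene, dyb-1, the dystrobrevin gene, and ceh-51, which encodes a homeodomain factor of the mesoderm lineage. Of 8 regulators of muscle fate and gene expression, 5 were called in sig-7(RNAi) (62.5%, against 23.9% of protein-coding genes) and 4 in control (50%, against 22.8%). Among them hlh-1, the MyoD homologue, was called in both conditions, unlike unc-120.

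**Figure D3:**
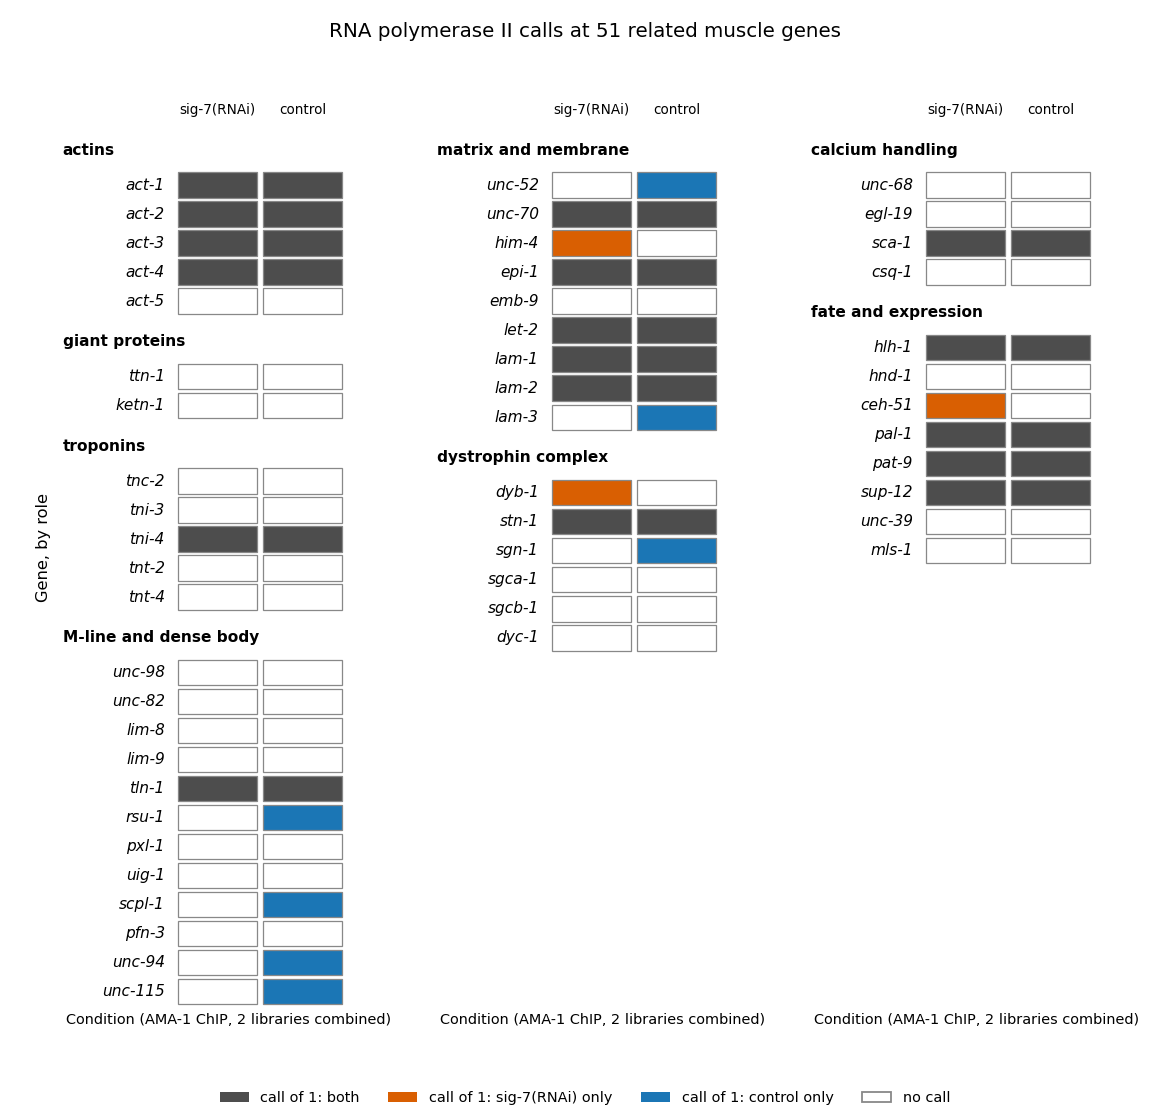
Calls at 51 related muscle genes outside the set, in rows by role, with sig-7(RNAi) as the left column and control as the right one of each panel; a filled box is a call of 1. The actin genes act-1 to act-4 are filled in both columns, and 4 of the 12 M-line and dense body genes are filled in control only.

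Control-only calls were also frequent among markers of other embryonic cell types. Of 22 marker genes, 5 were called in sig-7(RNAi) and 13 in control, with 10 in control only (45.5%, against 6.03% of protein-coding genes). The markers were chosen with earlier results of these data known, so these counts are a description only. Their share in sig-7(RNAi), 22.7%, was near the 23.9% of protein-coding genes, and their share in control was 59.1%, against 22.8%. In epidermis 1 of 6 markers was called in sig-7(RNAi) and 6 in control. In pharynx the counts were 0 and 3 of 4, and in neurons 1 and 2 of 4. The intestinal markers end-1, end-3, elt-2 and elt-7 were called in neither condition. Of the germline markers, 3 of 4 were called in sig-7(RNAi) and 2 in control. The part of these other cell types in the muscle gene counts was not tested.

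A broad peak can call several neighbouring genes, so the calls next to each muscle gene were compared by gene order. Of the 11 control-only genes, 4 had no call in either condition at the next protein-coding gene on both sides. These were unc-54, pat-10, dim-1 and unc-120. They make up 36.4% of the 11, and 25.7% of all control-only protein-coding genes likewise had no called neighbour. For unc-120, the adjacent noncoding RNA genes D1081.15 and D1081.17 were both called in control only. The noncoding RNA gene ZC477.19, adjacent to deb-1, was also called in control only. lev-11, myo-3, tni-1, pat-2 and pat-6 each had a next protein-coding gene with the same control-only call. For myo-3 it was vab-8, for lev-11 Y105E8B.11, for tni-1 F42E11.3, for pat-2 F54F2.9, and for pat-6 pqbp-1.1. Whether such a pair rests on 1 shared peak cannot be read from the table. The share of such pairs among all control-only protein-coding genes was not computed, so these pairs are a description only.

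A few control-only genes lay beside genes that were called in both conditions, about as often as control-only genes at large. cpn-3 lies between aars-2, an alanyl-tRNA synthetase gene, and F28H1.1, and both were called in both conditions. deb-1 lies beside rps-4, a ribosomal protein gene, and pat-2 beside prx-19, a peroxisome gene, and each of these neighbours was likewise called in both. lev-11 was flanked on its other side by exoc-8, an exocyst gene called in sig-7(RNAi) only. In all, 3 of the 11 control-only genes (cpn-3, pat-2 and deb-1) adjoined a protein-coding gene called in both conditions (27.3%). This is near the background, 25.2% of all control-only protein-coding genes.

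Genes called in both conditions were also found in isolation. unc-60 and zyx-1 had no call among the 5 protein-coding genes on either side. alp-1 had none at the next gene on either side. These 3 of the 10 genes called in both (30%) had no called protein-coding neighbour, against 8.01% of all protein-coding genes called in both. The window of 5 genes was not counted over all genes. Of the 10 genes called in both, 5 adjoined a protein-coding gene with the same pair of calls, against 82% of all protein-coding genes called in both. They were mlc-3 beside rpc-2, an RNA polymerase III subunit gene, pat-3 beside mmcm-1, unc-112 beside gasr-8, pat-4 beside mrpl-40, a mitochondrial ribosomal protein gene, and dys-1 beside F32B4.5. The sig-7(RNAi)-only genes unc-45 and unc-96 had no call at the next protein-coding gene on either side, while 81.4% of all sig-7(RNAi)-only protein-coding genes had a called neighbour. With 2 such genes this is a description only.

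**Figure D4:**
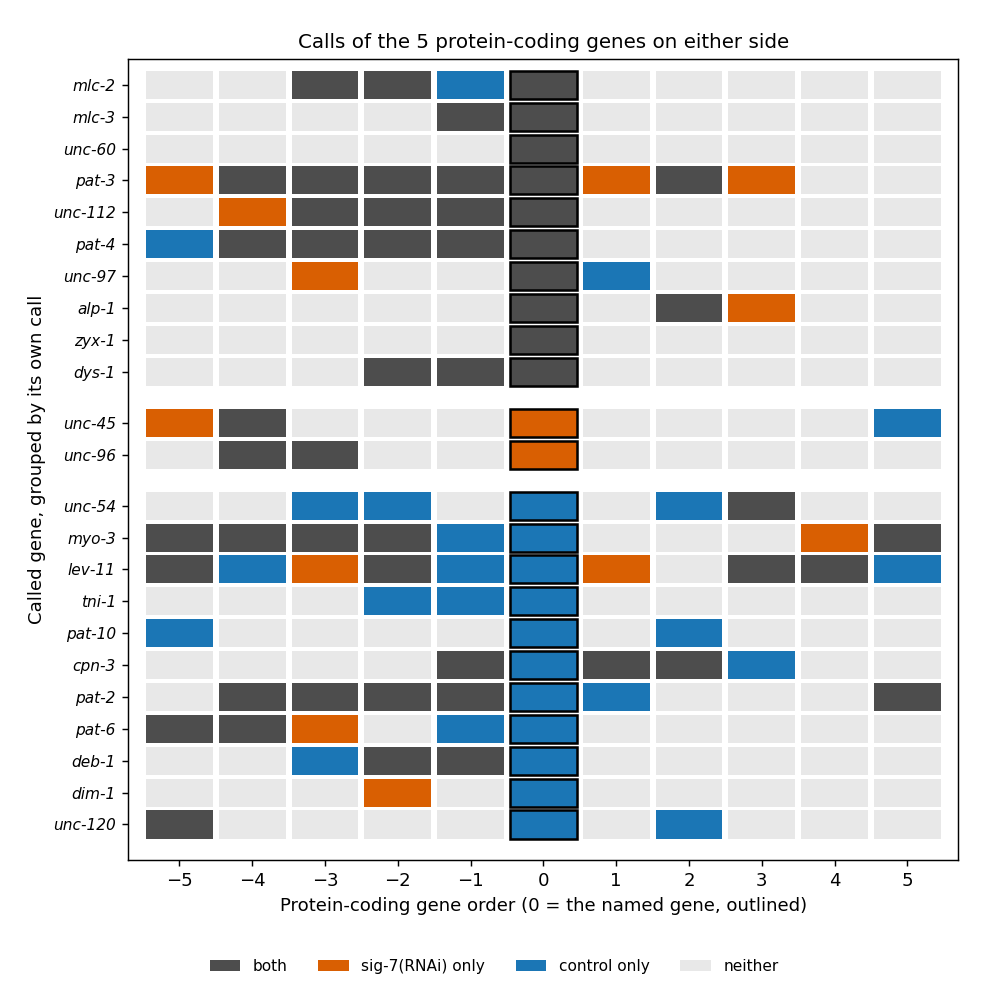
Calls of the 5 protein-coding genes on either side of each of the 23 called muscle genes, by gene order (x axis, 0 is the muscle gene, outlined); rows are grouped by the muscle gene's own calls. unc-60 and zyx-1 stand alone, cpn-3 is flanked by genes called in both conditions, and lev-11 lies among 9 called genes of 10.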

How the data were processed

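AMA-1 ChIP and input libraries were made from fixed, sonicated embryos, with 2 of each per condition. The authors deposited a categorical (other) value, a 0 or 1 call per gene and condition. Values per library were not analysed here, so depth is unknown and no error between replicates could be computed. Per the file headers, MACS2 called broad peaks (cutoff 0.01), a gene needed 250 bp or 45% of its length under a peak, and a 1 needed this in both replicates. The submitters' processing notes name Bowtie 1.0.1 and the build ce10. The use of the inputs, the gene annotation and the MACS2 version were not given in the sources used here.

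Sequence names were matched, ignoring case, to locus tags of the RefSeq gene table (WBcel235), with 8824 of 8922 names matched, and 36 of 36 members. It served for symbols, kinds of gene and gene order only, since its build is not ce10. The 98 unmatched names do not enter neighbour counts. Genes absent from the table count as called in neither. Counting was done in Python 3.11.15 with pandas 2.3.3 and was tested on simulated calls. Members and lists were chosen with earlier results of these data known, including those of unc-54, myo-3, lev-11 and unc-120. unc-96, first put on the related list too, was counted as a member alone. All members are named. Of the related list, each gene called in a single condition and the first 8 called in both are named; others are named after their values were seen. No test was run, as combined calls leave no samples to test. Alternatives changed the background and the members counted.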

Additional observations from a re-analysis of the deposited data

How the results depend on the processing

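No paired analysis was possible because each call already combines both replicates of a condition, and for the same reason leaving out each replicate in turn was not run. The counts of members called in both conditions, in sig-7(RNAi) only and in control only were 10, 2 and 11. Removing myo-1 and myo-2 could not change these counts, since both genes were called in neither condition. Counting genes of 1 stretch of equal calls once removed no member, so it could not change them either. Without mlc-1 and mlc-2 the counts were 9, 2 and 11. Leaving out members with an adjacent gene of any kind, noncoding included, that had the same pair of calls gave 7, 2 and 6, and 0 called in neither in place of 13, since every uncalled member had an uncalled neighbour. With next protein-coding genes in place of genes of any kind, the counts were 5, 2 and 6, again with 0 in neither. Without unc-54, myo-3, lev-11 and unc-120 they were 10, 2 and 7. The last 2 settings were chosen after seeing the data, and the last removes control-only genes by construction. The background moved with the genes it holds. The share called in both conditions, 9.52% of all genes, was 16.8% of protein-coding genes and 15.6% without piRNA and other ncRNA genes. For sig-7(RNAi) only the shares were 4.4%, 7.05% and 6.77%, and for control only 4.88%, 6.03% and 5.43%. Among protein-coding genes called in at least 1 condition, a setting chosen after seeing the data, they were 56.3%, 23.6% and 20.2%, against 43.5%, 8.7% and 47.8% of the 23 called members. A gene called in neither may have had a peak in 1 replicate of either condition, so a missing call is no measure of absent polymerase.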
